A study of Rattus norvegicus with 12 samples.

Results

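The microRNAs (miRNAs) of serum exosomes were compared with those of heart tissue in the group named CK, by the share that each miRNA held of all miRNA reads of its sample type. All 583 miRNAs listed in either of 2 deposited tables entered the comparison. Of these, 574 were in the heart table, 367 in the exosome table and 358 in both. The study collected 6 heart and 6 serum samples from SD (Sprague-Dawley) rats and sequenced their small RNA. Its design text describes hearts taken 1 week after a 30 min ligation of the left coronary artery. The labels do not say which samples form the CK group, what CK and the other group, M, stand for, or whether CK rats were operated on. They call the circulating sample serum, and only the deposited table calls it exosome. The CK column of each table is the authors' mean of 3 libraries, so the values below come from those means and from single libraries recovered from them. The tables were normalized separately and the sample types differ, so the comparison is a description without a test.

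A miRNA is a short RNA cut from a hairpin precursor. It is loaded into an Argonaute protein and represses mRNAs that pair with its seed, the stretch of bases near its 5′ end, so that miRNAs with one seed form a family with overlapping targets. Exosomes are small vesicles that cells release into blood and other fluids. Blood cells, platelets, endothelium and liver are regarded as major sources of circulating miRNAs, while heart muscle carries its own set, the miRNAs of the miR-1, miR-133, miR-208 and miR-499 families.

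The mature sequences below carry the main contrasts. They are those RefSeq gives for the rat genome GRCr8, written 5′ to 3′, with bases 2 to 8 (the seed) in capitals. The following 4 were far richer in the exosome table or, for miR-92a-3p, are the near-identical relative needed to read one of them:
miR-375-3p: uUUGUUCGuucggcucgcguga
miR-92b-3p: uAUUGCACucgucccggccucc
miR-92a-3p: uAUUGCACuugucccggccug
miR-122-5p: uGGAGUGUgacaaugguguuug
The next set holds the muscle miRNAs, whose shared seeds place miR-206-3p with miR-1-3p and miR-1b, and miR-133a-3p with miR-133b-3p:
miR-1-3p: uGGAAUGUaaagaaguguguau
miR-1b: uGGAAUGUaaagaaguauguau
miR-206-3p: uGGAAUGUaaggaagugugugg
miR-133a-3p: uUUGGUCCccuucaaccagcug
miR-133b-3p: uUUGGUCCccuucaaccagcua
miR-133a-5p: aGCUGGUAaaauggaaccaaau
miR-208a-3p: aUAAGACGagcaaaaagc
The last set holds the other miRNAs past the limits on the heart side that had a RefSeq entry, and 3 of the abundant miRNAs that stood far apart between the tables:
miR-490-3p: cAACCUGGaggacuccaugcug
miR-504: aGACCCUGgucugcacucuguc
miR-127-3p: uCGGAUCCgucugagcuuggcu
miR-126a-3p: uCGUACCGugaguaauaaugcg
miR-191a-5p: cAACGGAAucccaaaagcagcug
miR-23a-3p: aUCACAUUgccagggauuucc

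The CK means summed to 4262022 normalized reads for heart and 2215029 for exosome, and each share is a mean divided by its table's sum. The estimated depth was 4059000, 5891000 and 6610000 miRNA reads for the heart libraries and 1696000, 2961000 and 5328000 for the exosome libraries, numbered here from 1 to 3 by increasing depth. Whole reads per library could be recovered for 87.3% of heart and 84.2% of exosome entries, those with the lower means. Exosome libraries differed more among themselves. For miRNAs with means of 100 to 1000, the median coefficient of variation (SD over mean) between the 3 libraries was 48.5% in exosome (120 miRNAs) and 19.8% in heart (99 miRNAs). Of 288 recovered exosome entries above 0, 84 had all their reads in 1 of the 3 libraries, with a median of 74.5 reads, whereas the 44 such heart entries had a median of 1 read.

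Heart and exosome held largely the same miRNAs in very different proportions. The 358 miRNAs listed in both tables made up 99.7% of the heart total and 99.98% of the exosome total. The 216 miRNAs in the heart table alone held 0.339% of the heart total, and for 77 of them the heart share would have been worth fewer than 3 reads in all 3 exosome libraries together. The 9 miRNAs of the exosome table alone had CK means of at most 211, the value of miR-653-3p, and 3 of them were at 0 in CK. Among the 339 miRNAs above 0 in both tables, Spearman's rho of the shares was 0.687, and Pearson's r of log2 share was 0.700. Among the 65 with a mean of at least 1000 in both, rho was 0.300. These coefficients describe miRNAs of the same libraries, which are not independent replicates.

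**Figure D1:**
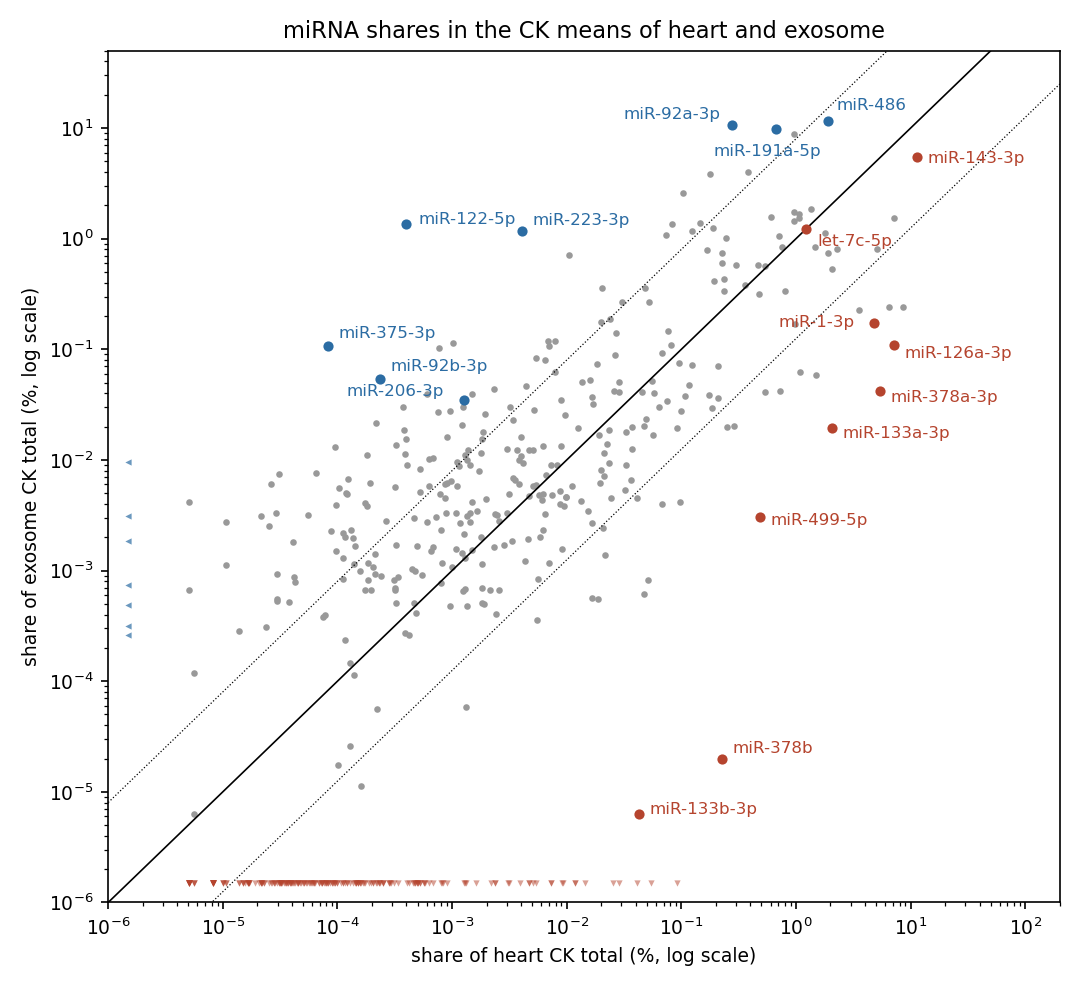
Share of the CK total in heart (horizontal axis, %) against the share in exosome (vertical axis, %) for the miRNAs above 0 in both tables, on log scales. The points follow a broad diagonal (rho 0.687 over 339 miRNAs). miR-122-5p, miR-375-3p, miR-223-3p and miR-92b-3p are among those far above it, and miR-133b-3p and miR-378b lie far below. Triangles near the axes mark miRNAs above 0 in either table but not both.

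Both profiles were dominated by a few miRNAs, but by different ones. In heart, 7 miRNAs held 50% of the total and 35 held 90%, against 6 and 38 in exosome. The 10 most abundant heart miRNAs held 62.1% of the heart total and 9.71% of the exosome total. The 10 most abundant exosome miRNAs held 60.4% of the exosome total and 18.3% of the heart total. Of the 20 most abundant in each table, 5 were shared (25% of each list): let-7c-5p, miR-143-3p, miR-21-5p, miR-30d-5p and miR-486.

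The 10 leading heart miRNAs all held a smaller share of exosome. miR-143-3p, a miRNA of smooth muscle, held 11.5% of the heart total and 5.53% of the exosome total, rank 1 and rank 5. miR-1b and miR-1-3p, which restrain growth and excitability genes in muscle cells, held 8.58% and 4.83% of heart but 0.244% and 0.173% of exosome. miR-126a-3p, the main miRNA of endothelium and a regulator of vessel integrity, held 7.23% against 0.109%. It was at rank 3 in heart and at rank 63 in exosome. miR-378a-3p, which lies within the gene of the metabolic coactivator PGC-1β, held 5.39% of heart and 0.0417% of exosome, a ratio of 129, and its exosome levels of 882, 862 and 1027 normalized reads differed little between libraries. miR-30d-5p (7.16% against 1.55%), miR-99a-5p (6.46% against 0.242%), miR-26a-5p (5.14% against 0.799%), miR-30c-5p (3.58% against 0.228%) and miR-148a-3p (2.30% against 0.801%) completed the heart list, each with the larger share in heart.

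Of the 10 leading exosome miRNAs, miR-143-3p alone held the larger share in heart. miR-486, a miRNA of red cell precursors that is also expressed in muscle, held 11.6% of exosome and 1.91% of heart. miR-92a-3p, from the proliferation-linked miR-17 to miR-92 cluster, held 10.6% against 0.274%. miR-191a-5p, often used as a reference miRNA because it is expressed so widely, held 9.84% against 0.675%. miR-24-3p held 8.77% against 0.953%, and its cluster neighbour miR-23a-3p held 4.01% against 0.382%. miR-128-3p, known mainly from brain, held 3.85% against 0.177%, and miR-423-5p, which has been studied as a circulating marker of heart failure, held 2.57% against 0.103%. miR-21-5p, raised in many injured and fibrotic tissues, was much closer between the tables, at 1.85% of exosome and 1.36% of heart, a direction that turned when the median ratio of the 269 miRNAs with means of at least 10 in both tables was set to 0, as was miR-125a-5p at 1.75% and 0.966%.

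**Figure D2:**
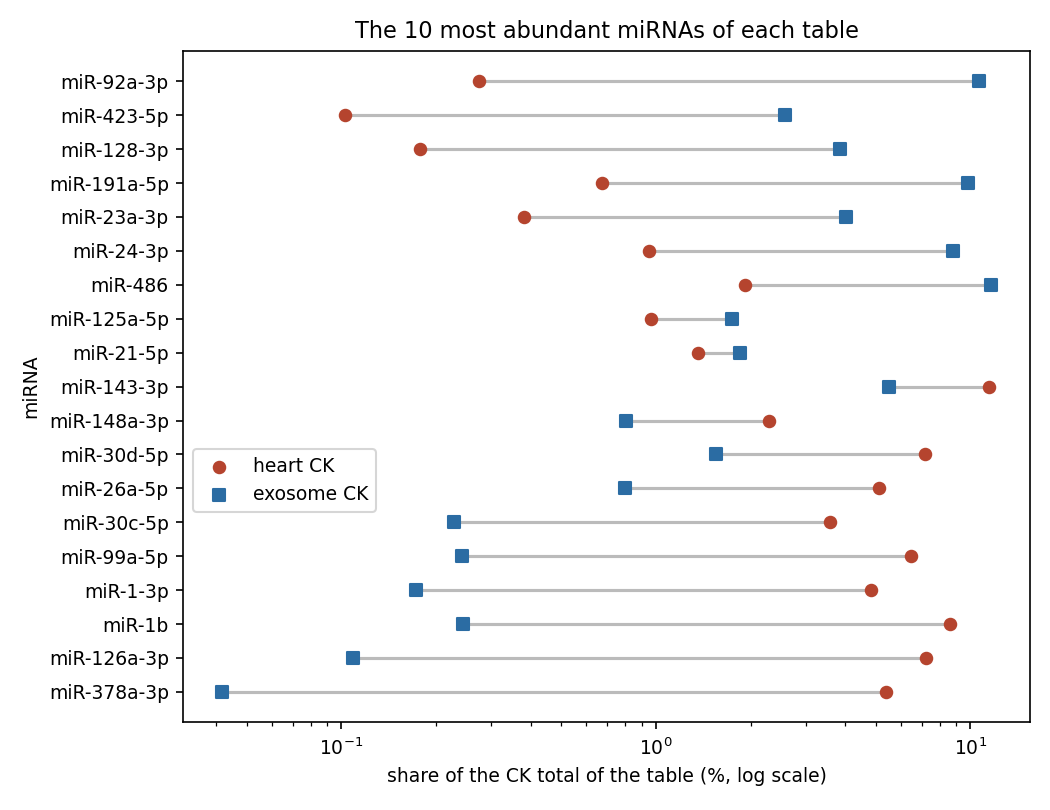
Share of the CK total (horizontal axis, %, log scale) in heart (circles) and exosome (squares) for the 19 miRNAs among the 10 most abundant of either table, ordered by the ratio of the shares. miR-378a-3p spans the widest gap toward heart (5.39% against 0.0417%) and miR-92a-3p the widest toward exosome (10.6% against 0.274%), while miR-21-5p differs least.

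Among all 583 miRNAs, 2 had a CK mean of at least 1000 in exosome and under 10 in heart, which is 0.343% of those compared, and 7 (1.20%) had the reverse, counting miRNAs not listed in the exosome table. The 2 on the exosome side were miR-375-3p, known from pancreatic islets and other endocrine and epithelial cells, and miR-92b-3p, a close relative of miR-92a-3p. With the same limits set on shares in parts per 1000000, which allows for the unequal totals of the tables, 3 miRNAs were on the exosome side (miR-122-5p, miR-335 and miR-375-3p) and 1 (miR-378b) on the heart side.

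For miR-375-3p the 3 exosome libraries gave 1602, 1506 and 9339 reads, or levels of 2093, 1126 and 3882 normalized reads. The heart libraries gave 1, 6 and 8 reads. Every exosome library held far more than any heart library, and exosome library 3 was the highest. As miR-375-3p was picked by the means of these libraries, this separation only describes it. The share in exosome was 1295-fold that in heart, with an exact 95% Poisson interval of 785 to 2314 from the 15 heart reads. That interval, like the others given here, covers counting error in the scarcer sample type only. By rank, miR-375-3p was at 64 in exosome and at 412 in heart.

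For miR-92b-3p the exosome levels were nearly equal between libraries, at 1261, 1104 and 1185 normalized reads. The heart libraries gave 12, 14 and 11 reads, levels of 12.6, 10.1 and 7.09. The mean of 9.94 puts it just under the limit of 10, and without heart library 3 it passed that limit, leaving 1 miRNA on the exosome side. The ratio of shares was 229 (interval 166 to 325 from 37 heart reads).

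The 7 miRNAs on the heart side included 3 of the miR-133 and miR-208 families. miR-133b-3p, which with miR-133a-3p represses growth and non-muscle genes in cardiomyocytes, stood at 1909, 1619 and 1956 normalized reads in the heart libraries and was found as 0, 0 and 1 read in the exosome libraries. At its heart share, 4283 exosome reads would have been counted. The ratio of shares was 6857, with an interval of 1231 to 270823 from the 1 exosome read. miR-133b-3p differs from miR-133a-3p in its last base only, and how reads matching both were assigned is not given. miR-208a-3p, which is encoded in an intron of the cardiac α-myosin heavy chain gene, stood at 1236, 838 and 1597 in heart and was not listed in the exosome table, where its heart share would have been worth 2867 reads. miR-133a-5p, the passenger arm of miR-133a, stood at 991, 892 and 1364 and was likewise not listed. All 3 were present in every heart library at levels that differed by less than 2-fold.

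miR-378b had the largest heart mean of the 7, 9701 normalized reads, and 1 exosome read. Its ratio of shares was 11579, with an interval of 2078 to 457336. It had no RefSeq sequence, and how any reads matching both it and miR-378a-3p were assigned is not given. miR-490-3p, which lies in an intron of the muscarinic receptor gene Chrm2, had a heart mean of 3872 and was not listed in the exosome table. miR-504, known to repress p53 in human cells, stood at 2018, 3299 and 1576 and miR-127-3p, of the imprinted Dlk1-Dio3 locus, at 1171, 2781 and 1310 in the heart libraries. Neither was listed in the exosome table, and heart library 2 was the highest for both.

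**Figure D3:**
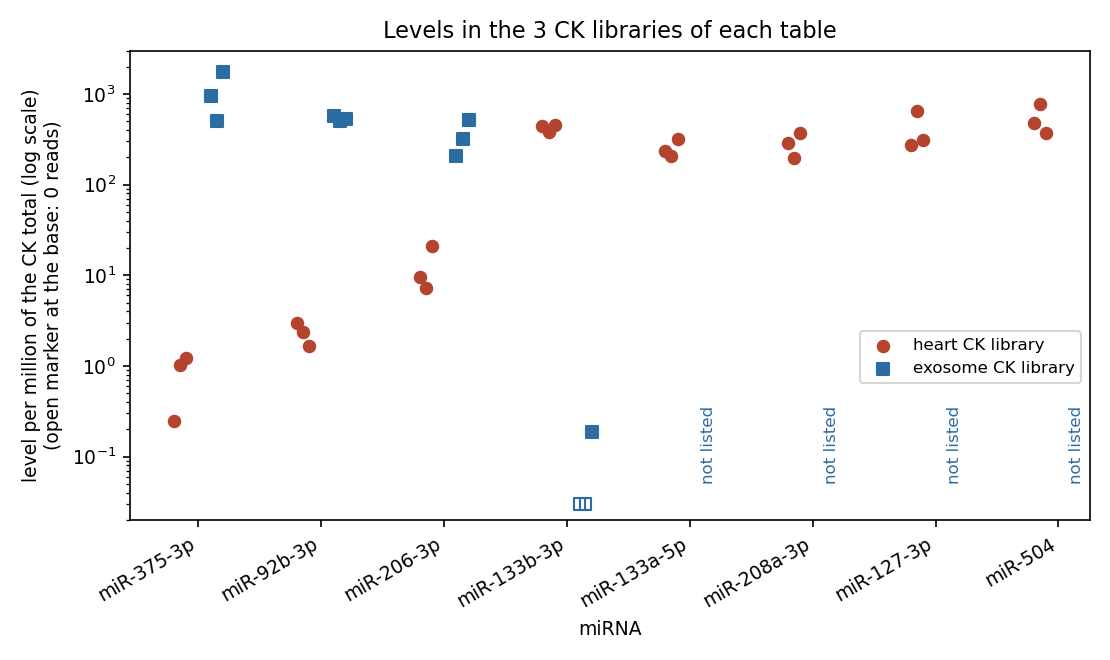
Level in parts per 1000000 of the table's CK total (vertical axis, log scale) in each of the 3 heart libraries (circles) and 3 exosome libraries (squares) for miR-206-3p and the miRNAs past the limits whose reads could be recovered, with open markers at the base for libraries with 0 reads. miR-375-3p, miR-92b-3p and miR-206-3p are higher in every exosome library than in any heart library, and miR-133b-3p is present in 1 exosome library with 1 read. The miRNAs past the limits were picked by the means of these libraries.

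Some miRNAs came close to these limits. miR-122-5p, the dominant miRNA of hepatocytes, had an exosome mean of 30260 and rank 17 there, against 19, 14 and 32 heart reads, a heart mean of 16.9. Its ratio of 3444 (interval 2702 to 4463 from 65 heart reads) exceeded that of miR-375-3p. miR-130b-5p had means of 25.8 in heart and 874 in exosome, and miR-183-5p, of a sensory and epithelial cluster, 15.7 and 662. On the heart side, miR-30c-2-3p had 2191 in heart and 18.2 in exosome, where all 73 reads fell in library 2. miR-378a-5p had 2014 in heart and 13.7 in exosome, from 0, 32 and 41 reads. miR-322-5p, a relative of miR-16-5p known to promote differentiation of mouse muscle cells, gave 577, 746 and 1089 reads in heart and 0 reads in all 3 exosome libraries, so that its heart share was at least 481-fold higher, counting the limit for 0 as 3 reads over the exosome group. miR-30c-1-3p, with a heart mean of 507 and 0 exosome reads, was at least 396-fold higher by the same limit. The other arm of the miR-322 hairpin, miR-322-3p, went the opposite way, at 0.0522% of heart and 0.265% of exosome (log2 ratio 2.35).

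The 65 miRNAs with means of at least 1000 in both tables are measured deeply in each. They were 61.3% of the 106 such heart miRNAs and 77.4% of the 84 such exosome miRNAs. Past an 8-fold ratio of shares were 11 (16.9%) with the larger share in exosome and 7 (10.8%) with the larger share in heart, and the other 47 lay within 8-fold. The median log2 ratio of exosome over heart was 0.56, with quartiles of -1.05 and 2.35. Where libraries could be compared, among the 188 miRNAs with means of at least 10 and recovered reads in both tables, all 3 exosome libraries lay above all 3 heart libraries for 67 (35.6%), the reverse held for 35 (18.6%), and the ranges overlapped for 86. Of 45 with a ratio past 8-fold, 4 overlapped, and of 56 within 2-fold, 52 overlapped. These sets were picked by the means of the same libraries, so their overlap largely follows from that choice.

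On the heart side of these 65, the largest log2 ratios were -6.05 for miR-126a-3p, -5.14 for miR-1b, -4.80 for miR-1-3p, -4.74 for miR-99a-5p and -4.68 for miR-100-5p. They were followed by miR-145-5p at -4.11, miR-30c-5p at -3.97 and miR-26a-5p at -2.68. The low exosome values of these miRNAs were measured in every library whose reads could be recovered. miR-126a-3p had exosome levels of 3447, 2134 and 1681, miR-145-5p 1855, 1536 and 787, and miR-100-5p, a relative of miR-99a-5p that targets mTOR in human cells, 1999, 985 and 922. Library 1 was the highest for all 3.

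On the exosome side, the largest log2 ratios were 5.27 for miR-92a-3p, 4.64 for miR-423-5p, 4.44 for miR-128-3p and 4.02 for miR-16-5p, a cell cycle regulator abundant in blood cells. miR-10b-5p, encoded among the HOX genes, and miR-191a-5p were both at 3.87, miR-23a-3p at 3.39 and miR-423-3p at 3.26. The reads of these 8 were too many to be recovered by library. Nearest to equal shares were let-7c-5p (-0.01), miR-328a-3p (0.05), miR-181a-5p (0.09), miR-181b-5p (-0.10) and let-7b-5p (0.16). With the median ratio set to 0, miR-328a-3p, miR-181a-5p and let-7b-5p lay on the heart side, and miR-181b-5p changed sides without heart library 3 (0.12) or exosome library 1 (0.04).

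Grouped by the cell types they are known from, the summed shares of the muscle and endothelial lists were lower in exosome than in heart, and those of the liver, leukocyte and red cell lists were higher. Several of these sums rested on 1 miRNA, named below. In each sample type, fewer cells of a type and less of a miRNA per cell cannot be told apart, and for exosomes neither can the amount released. As background for the counts below, 222 of the 339 miRNAs above 0 in both tables had the larger share in exosome and 117 in heart, with a median log2 ratio of 1.08, so that a miRNA taken from both tables was more often on the exosome side.

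The muscle list held 12 miRNAs, 16.1% of the heart total and 0.474% of the exosome total, a 33.9-fold difference. Of the 6 above 0 in both tables, 5 had the larger share in heart, with a median log2 ratio of -5.93, and the other 6 were in the heart table alone. miR-133a-3p had a mean of 87890 in heart and exosome levels of 667, 368 and 257, a 106-fold lower share. miR-499-5p, from an intron of the myosin gene Myh7b, had a mean of 20710 in heart and exosome levels of 47.0, 83.8 and 72.7, a 159-fold lower share. miR-208b-3p, the partner of miR-208a-3p in the β-myosin heavy chain gene, had a mean of 309 in heart and was not listed in the exosome table. miR-206-3p was the exception. This miRNA of skeletal muscle shares its seed with miR-1-3p but stood at 41.0, 31.1 and 89.0 normalized reads in heart and at 464, 707 and 1159 in exosome, a 27.8-fold higher share in exosome with no overlap between libraries.

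The endothelial list of 7 held 7.36% of heart and 0.199% of exosome, a 37.0-fold difference carried by miR-126a-3p. Of the 5 above 0 in both, 4 had the larger share in heart and 1 in exosome, with a median log2 ratio of -1.82. The other arm of that hairpin, miR-126a-5p, had a mean of 3913 in heart and exosome levels of 743, 239 and 298. miR-221-3p, which endothelium shares with many cell types, had a 3.30-fold larger share in exosome (log2 ratio 1.72), and its cluster neighbour miR-222-3p was near equal at -0.19. The 4 smooth muscle miRNAs held 12.6% of heart and 5.64% of exosome, most of it miR-143-3p. miR-145-3p had levels of 1299, 902 and 1420 in heart and 704, 1370 and 1300 in exosome, so that its exosome share was the larger, whereas miR-145-5p of the same hairpin had a 17.3-fold larger share in heart.

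The liver list of 6 held 0.0333% of heart and 1.47% of exosome, a 44.1-fold difference. Most of the exosome share was miR-122-5p, at 1.37%. miR-192-5p, shared by liver, kidney and gut, had levels of 1211, 926 and 1247 in heart and 2641, 1176 and 2089 in exosome, a much smaller contrast, and miR-194-5p of the same clusters had a log2 ratio of -0.34.

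The leukocyte list of 14 held 0.595% of heart and 4.08% of exosome, and 11 of the 13 above 0 in both had the larger share in exosome, with a median log2 ratio of 1.73. miR-223-3p, a miRNA of neutrophils, monocytes and platelets, stood at 262, 125 and 130 in heart against a mean of 26065 in exosome, a log2 ratio of 8.18. miR-142-5p, made throughout the blood lineages, had means of 446 and 15728. Its sister arm miR-142-3p had means of 201 in heart and 105 in exosome, from 89, 264 and 0 exosome reads. As a share these were equal, at 0.00472% of each total. miR-150-5p, of mature lymphocytes, had means of 10399 and 22246, and miR-155-5p, induced in activated lymphocytes and macrophages, stood at 139, 135 and 201 in heart and at 427, 260 and 131 in exosome. Divided by the totals of the tables, which differ, every exosome library lay above every heart library for miR-155-5p, at 59.1 or more against 47.2 or less in parts per 1000000.

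The 5 red cell miRNAs held 1.97% of heart and 12.0% of exosome, nearly all of it miR-486 in both. miR-451-5p, the most abundant miRNA of mature red cells, had means of 2038 and 7965, a log2 ratio of 2.91. miR-144-5p, from the same primary transcript, had 41.0 in heart and exosome levels of 822, 705 and 301. The ratio of miR-486 to miR-451-5p was 40.0 in heart and 32.4 in exosome. The share of miR-23a-3p, used with miR-451-5p as an index of lysed red cells in serum, was 11.2 times that of miR-451-5p in exosome, and the part of lysis in the red cell values was not tested.

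Lists known from other tissues had the larger summed share in exosome. The neural and neuroendocrine list of 15 held 0.244% of heart and 3.99% of exosome, of which miR-128-3p was 3.85%. Of its 10 miRNAs above 0 in both tables, 7 had the larger share in exosome, near the proportion of 222 in 339 over all miRNAs. Another 5 were above 0 in heart alone. miR-9a-5p, of neural progenitors, held 83.5, 199.8 and 177.9 parts per 1000000 in the heart libraries and 93.2, 10.5 and 0 in the exosome libraries. The ranges overlapped, and most of its exosome mean came from library 1. The 11 epithelial miRNAs of the miR-200 list held 0.0149% of heart and 0.127% of exosome. Within it, miR-203a-3p, of stratified epithelium, stood at 285, 247 and 154 in heart and at 1851, 539 and 3164 in exosome, while miR-200c-3p had levels of 387, 130 and 308 against 62.7, 73.3 and 79.0. The mesenchymal and fibroblast list of 11 held 2.03% and 3.01%. In that list the 2 arms of miR-199a parted, with means of 4113 in heart and 93.2 in exosome for miR-199a-5p (log2 ratio -4.52) and 9950 and 7513 for miR-199a-3p (0.54).

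**Figure D4:**
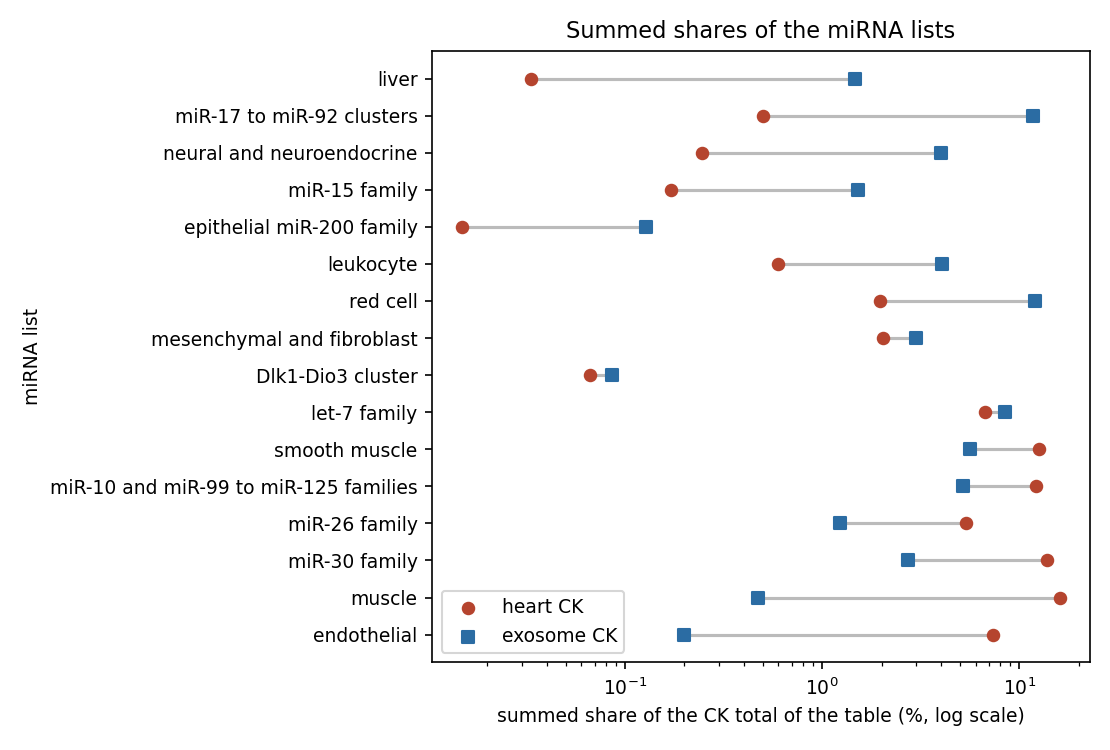
Summed share of the CK total (horizontal axis, %, log scale) held by each miRNA list in heart (circles) and exosome (squares), ordered by the ratio of the shares. The liver list (0.0333% of heart, 1.47% of exosome) and the endothelial list (7.36%, 0.199%) lie at opposite ends, and the let-7 family (6.71%, 8.44%) is nearly equal.

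The imprinted Dlk1-Dio3 locus, a large miRNA cluster active in embryonic, neural and muscle tissue, was low in both tables. Its 61 listed members held 0.0663% of heart and 0.0858% of exosome. Of the 27 above 0 in both, 24 had the larger share in exosome, with a median log2 ratio of 2.64, but another 29, miR-127-3p among them, were above 0 in heart and either not listed or at 0 in exosome. Counting only the members above 0 in both therefore leaves out those scarce in exosome. The log2 ratio of the summed shares was 0.37 over all listed members and 2.01 when members and totals were limited to miRNAs listed in both tables. miR-487b-3p, of this locus, had 6 heart reads in all and exosome levels of 162, 143 and 190, a ratio of 241 (interval 111 to 657).

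Large families differed in how far they stood apart. The 9 let-7 miRNAs, repressors of growth genes and abundant in most differentiated tissue, held 6.71% of heart and 8.44% of exosome, and were close to equal as a sum. The 11 miRNAs of the miR-30 family, which repress the matrix regulator CTGF in heart cells, held 13.9% against 2.71%, and each of the 9 above 0 in both had the larger share in heart, with a median log2 ratio of -2.17. The miR-26 family held 5.37% against 1.23%, of which miR-26a-5p was 5.14% and 0.799%. Of its 3 miRNAs above 0 in both, the other 2 had the larger share in exosome, and the median log2 ratio was 0.87. The 7 miRNAs of the miR-10 and miR-99 to miR-125 families held 12.2% against 5.19%. In contrast, the miR-17 to miR-92 clusters held 0.503% of heart and 11.8% of exosome. All 12 of their miRNAs had the larger share in exosome, but miR-92a-3p alone made up most of it, and the median log2 ratio was 2.31. The 9 miRNAs of the miR-15 family held 0.172% against 1.52%, of which miR-16-5p was 0.0836% and 1.36%. Of the 8 above 0 in both, 5 had the larger share in exosome and 3 in heart. Summed by seed over the miRNAs with a RefSeq sequence, which leaves out miR-486, miR-30d-5p and miR-99a-5p, GGAAUGU (miR-1-3p, miR-1b, miR-206-3p) held 13.4% of heart and 0.452% of exosome. AUUGCAC (miR-25-3p, miR-32-5p, miR-363-3p, miR-92a-3p and miR-92b-3p) held 0.447% of heart and 11.5% of exosome. UUGGUCC (miR-133a-3p, miR-133b-3p) held 2.11% and 0.0195%.

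Near-identical miRNAs were often in different proportion in heart and exosome. Positions of base differences are counted from 1 at the 5′ end. miR-1-3p and miR-1b differ by G17A, and the ratio of their levels was 0.562 in heart and 0.710 in exosome. miR-133a-3p and miR-133b-3p differ by G22A, and the ratio was 48.1 in heart and 3109 in exosome, the latter from 1 read of miR-133b-3p (interval 558 to 122799). miR-92a-3p and miR-92b-3p differ by U10C and G21C, besides 1 more base at the end of miR-92b-3p, and the ratio was 1177 in heart and 199 in exosome. miR-23a-3p and miR-23b-3p differ by U19A, and the ratio was 0.717 in heart and 97.2 in exosome. miR-26a-5p and miR-26b-5p differ by C11U and C21U, besides 1 more base at the end of miR-26a-5p, and the ratio was 21.7 in heart and 1.85 in exosome. For miR-378a-3p and miR-378b, the latter without a RefSeq sequence to compare, the ratio was 23.7 in heart and 2122 in exosome, from 1 exosome read of miR-378b. How the authors assigned reads that match both members of a pair is not given in the sources used here, so each of these values is uncertain by that assignment.

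Neighbouring miRNA genes, which can share a primary transcript, also parted. In RefSeq's annotation of GRCr8, 27 clusters held at least 2 miRNAs with a mean of at least 100 in a table, each within 10000 bases of the next on the same strand. Within these clusters the median range of the log2 share ratio was 3.06, and the range exceeded 1 in 23 clusters and 3 in 14. As background, the 150 miRNAs with means of at least 100 in both tables had log2 ratio quartiles of -1.26 and 1.85. miRNAs in general thus stood apart too, and whether neighbours differed less than others was not tested. A range grows with the number of members. Several miRNAs count in more than 1 cluster: miR-24-3p, miR-92a-3p, miR-17-5p, miR-19b-3p, miR-29b-3p, let-7a-5p and let-7f-5p. In the cluster of miR-23b, miR-27b and miR-24, the log2 ratio was -3.69 for miR-23b-3p, -1.35 for miR-27b-3p and 3.20 for miR-24-3p. miR-24-3p also comes from the cluster of miR-23a, where it is close to miR-23a-3p at 3.39. miR-100-5p at -4.68 lies beside a gene of let-7a-5p, at 1.38, which has further genes. In the cluster of miR-99b, let-7e and miR-125a, the log2 ratio was -2.55 for miR-99b-5p, -1.51 for let-7e-5p and 0.85 for miR-125a-5p. miR-206-3p and miR-133b-3p, neighbours in 1 skeletal muscle cluster, lay farthest apart, at 4.80 and -12.74, the latter resting on 1 exosome read. miR-191a-5p and miR-425-5p at 3.87 and 3.14, and miR-133a-3p and miR-1-3p at -6.73 and -4.80, stayed on the same side.

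**Figure D5:**
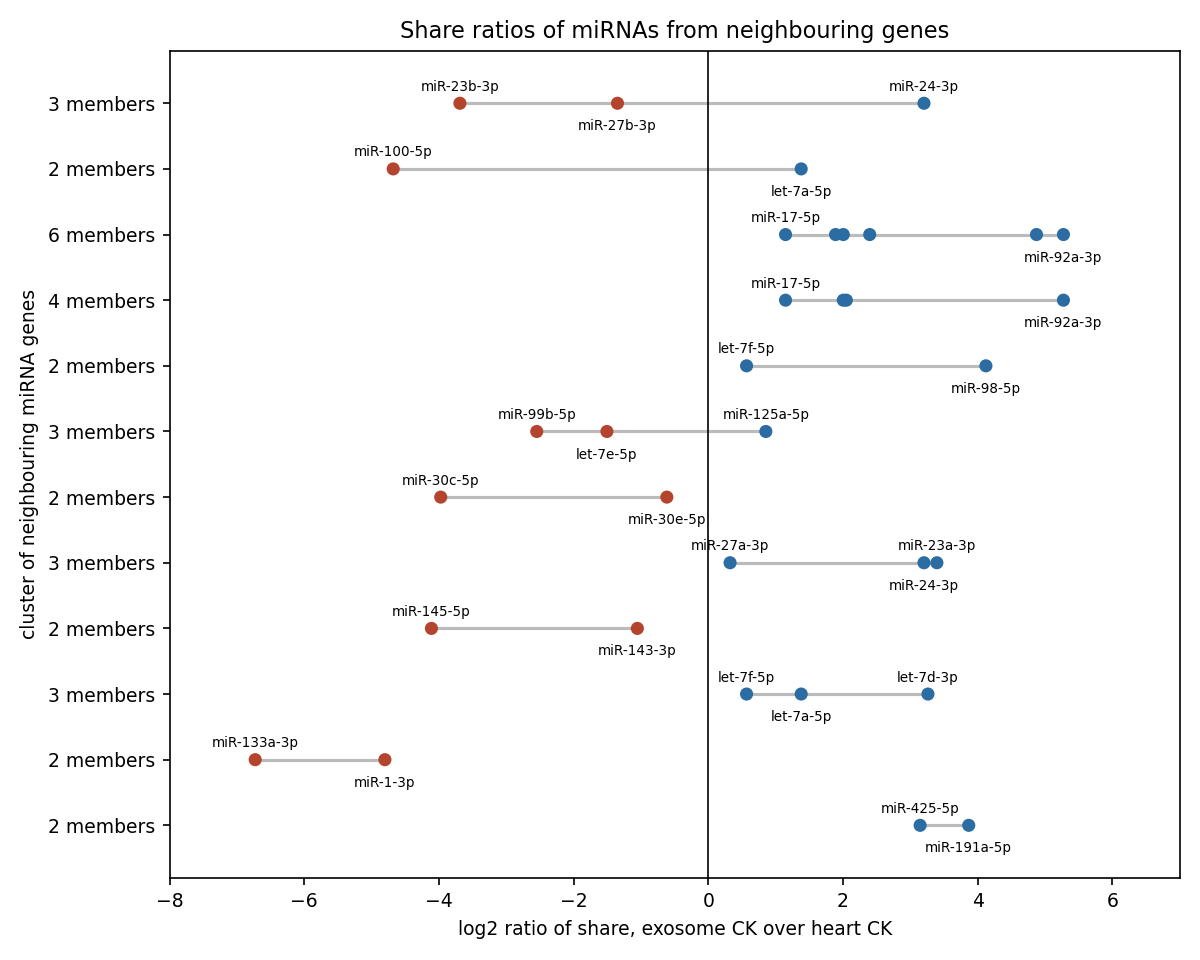
Log2 ratio of share, exosome over heart (horizontal axis), for miRNAs from neighbouring genes, 1 cluster per line, for the 12 clusters with a member holding at least 1% of a table's CK total. Members of 3 clusters fall on both sides of 0, with miR-24-3p at 3.20 against miR-23b-3p at -3.69 in the cluster drawn at the top.

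The ratio of the arms of a hairpin often differed between the tables as well. Of 69 hairpins with both arms above 0 and at least 100 normalized reads summed over the arms in each table, the larger arm differed between heart and exosome in 11. The minor arm of heart took a larger part in exosome in 43 and a smaller part in 26. Minor arms were picked by their heart values, which by itself favours a larger part in exosome. The ratio of the arms differed by more than 8-fold between tables in 24, and the arm ratios had a Spearman's rho of 0.863 between tables. The limit of 100 was on the summed arms, so a single arm could rest on few reads. Among the 24, miR-365-5p had a mean of 0.241 in heart, and miR-3068-5p had 0, 1 and 87 exosome reads. Hairpins with an arm at 0 or not listed were left out. Minor arms not listed in exosome, such as miR-143-5p and miR-133a-5p (heart means 505 and 1083), are therefore not among the 26. For miR-361, the 3p arm led in heart, at 2609, 3673 and 2459 against 326, 222 and 353 for the 5p arm. The 5p arm led in exosome, at 1660, 2444 and 2944 against 0, 194 and 73.2, with no overlap between the arms in either sample type. let-7d had means of 8227 (5p) and 6187 (3p) in heart and 9264 and 30830 in exosome. miR-330 had 232 (5p) and 146 (3p) in heart and 7.84 and 506 in exosome. miR-423 had 4381 (5p) and 5233 (3p) in heart and 56909 and 26124 in exosome.

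GC content and 3 short motifs were compared between exosome-rich and heart-rich miRNAs, as a description without a test. RefSeq entries matched 526 of the 583 miRNAs (90.2%), and these held 81.8% of the heart total and 81.9% of the exosome total. Among matched miRNAs with a mean of at least 100 in a table, the median GC content was 47.9% for the 58 with a more than 8-fold larger share in exosome or no heart entry, 50% for the 42 with the reverse and 45.5% for the 135 in between. The letters GGAG, searched on the mature strand only, were in 8.62%, 14.3% and 11.1% of these sets, and in 8.17% of all 526. CCCU was in 10.3%, 11.9% and 10.4% (9.32% of all), and GGCU in 10.3%, 11.9% and 10.4% (11.0% of all). Weighted by reads, the mean GC content was 43.3% in heart and 48.4% in exosome. The share of matched reads holding GGAG was 7.34% in heart and 2.15% in exosome, that holding CCCU 8.15% and 6.27%, and that holding GGCU 12.0% and 14.1%. These weighted values rest largely on abundant miRNAs and leave out those without a sequence, miR-486, miR-99a-5p and miR-30d-5p among them.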

How the data were processed

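Total RNA from heart and serum was made into small RNA libraries with a NEBNext kit, per the labels' protocols. Per the submitters' processing notes, reads were handled against mRatBN7.2, with Bowtie2 2.2.6 and DESeq 1.30.0 among the tools. The deposited values are a normalized count signal: per the file headers, the authors' mean for each group of read counts divided by DESeq size factors, 3 libraries per CK column. Serum samples were taken as the source of the exosome table. Neither table identifies CK libraries among the labelled samples, so libraries are numbered by depth, and nothing says whether they came from separate animals.

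Shares, ranks and ratios were computed with Python 3.11.15, pandas 2.3.3 and numpy 2.4.6, and figures were drawn with matplotlib 3.10.9. A miRNA missing from a table is called not listed and given no value. Whole reads per library were solved from the 15 digits of each mean (relative tolerance 6e-15, numba 0.67.0), after tests on simulated data, and a library's level is its reads divided by its size factor. Poisson intervals (95%) cover counting error only, and PCR copies are counted as reads. PCR, adapter ligation and read assignment can favour some miRNAs, and this was not tested.

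miRNAs named are the 10 most abundant of each table, those past the limits (1000 and 10) and those nearest to them, the 8 of 1000 or more in both tables with the most extreme ratio in each direction and the 5 nearest to 0, plus examples of lists, pairs, clusters and arms chosen after their values were seen. The members and the 16 lists were chosen with earlier results of these data known. Alternatives tried were other limits, other totals, leaving out each library, summing arms or seeds, a pseudocount of 1 in 1000000 reads, setting the median ratio to 0, and the M columns.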

Additional observations from a re-analysis of the deposited data

How the results depend on the processing

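No paired analysis was possible because the columns are group means without replicate numbers. The 2 miRNAs high in exosome became 1 (miR-375-3p) with an upper limit of 2000 or a lower limit of 5, 1 to 2 when each library was left out (miR-92b-3p was lost without heart library 3), and 0 in the M columns of the authors' deposited tables. The 7 high in heart became 3 with an upper limit of 2000 (miR-378b, miR-490-3p and miR-504), so the miRNAs of the miR-133 and miR-208 families were lost. They became 5 with arms summed, without miR-127 and miR-133a, and 1 (miR-378b) with limits on shares in parts per 1000000. When each library was left out, the count was 6 to 9. The M columns of the authors' deposited tables gave 6, of which 4 were among the 7. Of the miR-133 and miR-208 families, miR-133b-3p, miR-208a-3p and miR-133a-5p were not past the limits there, with heart M means of 976, 643 and 581. Spearman's rho of 0.687 became 0.735 over all 583 miRNAs with 0 where not listed, and 0.730 with arms summed. The 5 shared among the top 20 became 1 in the top 10, 34 in the top 50, 11 with seeds summed and 9 in the M columns of the authors' deposited tables. Setting the median ratio (log2 0.63) to 0 turned miR-21-5p to -0.18, miR-328a-3p to -0.58, miR-181a-5p to -0.54 and let-7b-5p to -0.48. In the M columns of the authors' deposited tables the log2 ratio turned to -1.41 for the mesenchymal list, -2.08 for the Dlk1-Dio3 list, -1.49 for miR-21-5p, 0.83 for let-7c-5p and -0.76 for miR-181a-5p. miR-181b-5p ranged from -0.23 to 0.12 when each library was left out, at 0.12 without heart library 3 and 0.04 without exosome library 1, in a leave-one-out chosen after seeing the data. The M columns hold another group, and the causes of these shifts were not tested. Leaving the 5 most abundant miRNAs out of each total moved all 16 list ratios by over 0.1 (log2) and turned none. Depth limits the miRNAs scarce in exosome, since the largest estimated exosome depth is 5328000 reads and the smallest is 1696000, and abundant miRNAs have no recovered spread.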
